A study of Homo sapiens with 35 samples.

Results

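The forkhead genes are the human protein-coding genes whose symbol is FOX followed by a letter and a number, optionally with a final letter or a further L suffix, from FOXA1 to FOXS1. By that rule, 51 of 19974 protein-coding genes on chromosomes 1 to 22 and X were members. They were described in a list of 308732 peaks from ATAC-seq, in which a transposase cuts accessible DNA and so marks open chromatin. The cells were blood progenitors made from the established embryonic stem cell line H1, and the series asks how ectopic MYC, a growth-promoting transcription factor, changes their chromatin. The labels name doxee17 cultures given doxycycline (12 libraries, batch 1), untreated doxee17 cultures (11 libraries, batch 1) and untreated H1 cultures (12 libraries, batch 2), sampled on 6 days between day 10 and day 20. They fall into 18 groups of 1 to 3 libraries, 35 in all, while the design text counts 44. In this design doxycycline induces ectopic MYC. Whether doxee17 is a single clone is not given in the sources used here.

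The deposited values are 1 pooled peak list with no value for any library. Doxycycline-treated and untreated cells, days, lines and batches can therefore not be set against each other, and the spread between replicates is unknown. Each fold below is the authors' fold enrichment of a peak at its summit over a constant background, as the peak caller MACS wrote it. That background was equivalent to a pileup of 93.5 reads or fragments, and depth per library is unknown. The exact Poisson 95% intervals given beside some folds cover counting error only, since reads without molecular identifiers are not independent molecules. In a mixed culture, a weak peak in many cells and a strong peak in few cells cannot be told apart. Markers of the labelled cell type had peaks: the median fold of a summit within 1 kb of a gene end was 34.4 for 12 blood progenitor genes, between 191-fold at LYL1 and no summit at GATA2 and TAL1, against 43.5 over all coding genes. The medians were 10.1 for 7 endothelial, 11.07 for 8 mesenchymal, 1.93 for 7 pluripotent, 2.90 for 8 endoderm and hepatocyte and 3.58 for 6 neuronal genes, although PECAM1 (82.9-fold), SYP (67.1-fold), COL1A1 (60.6-fold), APOA1 (57.6-fold) and GATA6 (42.4-fold) among these exceeded the blood median. A peak of any fold overlapped the end windows of 12 blood progenitor, 7 endothelial, 6 mesenchymal, 6 pluripotent, 6 endoderm and hepatocyte and 5 neuronal markers, and of 87.6% of all coding genes. By overlap, the median was 73.6 for the blood progenitor genes, against 56.1 over all coding genes. It was 18.3 for endothelial, 19.8 for mesenchymal, 2.42 for pluripotent, 10.2 for endoderm and hepatocyte and 6.70 for neuronal genes. TAL1 and GATA2 lay wholly under peaks of 28905 and 23245 bp, of 105- and 54.9-fold, whose summits fell outside the 1 kb windows. Which cells gave the peaks of any forkhead gene was not tested.

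Forkhead factors bind DNA through a winged-helix domain, usually at a core that reads TGTTTAC or close to it, and FOXA factors can bind it in closed chromatin. FOXO factors are the nuclear end of the insulin and PI3K pathway: AKT phosphorylates them and sends them out of the nucleus, while under stress or growth factor loss they enter it and turn on genes for cell cycle arrest, antioxidant defence and cell death. In mouse, FoxO factors keep blood stem cells quiescent, FOXP1 acts in B cell development and FOXP3 defines regulatory T cells. Many other members are patterning factors of the early embryo, such as FOXC1 in mesoderm and FOXD3 in the neural crest.

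Promoter sequences show what lay under, or outside, the peaks at the members' transcription starts. RefSeq promoters of GRCh38.p14, each of 300 bases (250 before and 50 after a start), were found for 40 of the 51 members, with 51 starts in all. Capitals mark matches to the motifs searched on both strands: TGTTTAC for forkhead factors, the E-box CACGTG (bound by MYC with MAX), AGATAA for GATA factors, AGGAAG for ETS factors, TGTGGTT for RUNX factors, TGACTCA for AP-1 factors and ATTGG, the reverse complement of the core of the CCAAT box. No base of the sequences below lies in more than 1 match. A match describes these letters and is not a bound site.

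FOXO3, encoding a FOXO factor of blood stem cells, is shown at 2 of its 4 listed starts, which lay under different peaks. The first, chr6:108559575-108559874 (+), holds 47 CpG dinucleotides and no match, and lay under a 152-fold peak. The last, chr6:108588523-108588822 (+), holds 2 CpG, an ETS match and an AP-1 match, and lay under a 37.8-fold peak.
FOXO3 first start: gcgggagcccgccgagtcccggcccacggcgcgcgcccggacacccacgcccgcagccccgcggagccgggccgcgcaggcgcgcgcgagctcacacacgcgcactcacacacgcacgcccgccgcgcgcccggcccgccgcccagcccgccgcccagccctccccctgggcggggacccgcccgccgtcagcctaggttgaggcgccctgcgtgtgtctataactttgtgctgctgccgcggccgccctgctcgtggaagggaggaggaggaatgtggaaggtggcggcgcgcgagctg
FOXO3 last start: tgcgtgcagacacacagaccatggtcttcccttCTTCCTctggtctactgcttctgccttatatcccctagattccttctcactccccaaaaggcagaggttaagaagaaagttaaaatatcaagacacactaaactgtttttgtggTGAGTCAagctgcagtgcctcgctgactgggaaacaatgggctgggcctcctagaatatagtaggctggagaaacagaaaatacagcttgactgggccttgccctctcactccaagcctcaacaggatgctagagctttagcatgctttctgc

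FOXO4, the X-linked FOXO factor, holds a forkhead match, written GTAAACA on the strand shown, shortly after its start, in chrX:71095601-71095900 (+), under a 36.9-fold peak.
FOXO4: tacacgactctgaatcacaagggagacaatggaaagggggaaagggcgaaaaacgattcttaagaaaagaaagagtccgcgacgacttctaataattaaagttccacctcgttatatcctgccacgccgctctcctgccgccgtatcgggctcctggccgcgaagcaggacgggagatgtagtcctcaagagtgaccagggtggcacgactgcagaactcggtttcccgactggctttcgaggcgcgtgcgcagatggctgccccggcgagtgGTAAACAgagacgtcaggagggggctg

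FOXP1 is shown at 3 of its 6 listed starts because their peaks and base composition differed. The upstream start, chr3:71583679-71583978 (-), has 41 CpG and lay under a 56.1-fold peak. The next start, chr3:71543508-71543807 (-), has 2 CpG and lay under a stronger peak of 78.4-fold. A start deep in the gene, chr3:71245028-71245327 (-), has the forkhead match and lay under a 4.05-fold peak.
FOXP1 upstream start: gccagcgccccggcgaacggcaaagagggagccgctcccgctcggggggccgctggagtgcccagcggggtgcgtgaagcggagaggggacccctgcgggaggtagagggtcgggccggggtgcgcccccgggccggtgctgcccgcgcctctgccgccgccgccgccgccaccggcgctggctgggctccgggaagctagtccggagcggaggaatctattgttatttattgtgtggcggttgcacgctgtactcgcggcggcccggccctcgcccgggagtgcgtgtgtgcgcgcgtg
FOXP1 next start: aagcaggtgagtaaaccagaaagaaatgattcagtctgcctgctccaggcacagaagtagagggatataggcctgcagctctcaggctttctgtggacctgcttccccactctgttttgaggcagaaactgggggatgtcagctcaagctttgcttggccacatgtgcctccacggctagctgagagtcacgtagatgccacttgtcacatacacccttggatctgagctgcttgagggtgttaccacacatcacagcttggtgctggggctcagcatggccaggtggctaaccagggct
FOXP1 internal start: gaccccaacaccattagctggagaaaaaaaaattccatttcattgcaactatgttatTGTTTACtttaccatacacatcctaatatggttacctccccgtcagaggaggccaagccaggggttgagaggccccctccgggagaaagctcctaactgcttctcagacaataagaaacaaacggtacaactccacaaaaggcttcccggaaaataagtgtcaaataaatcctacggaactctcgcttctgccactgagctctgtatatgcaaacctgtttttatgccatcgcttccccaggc

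The 3 members with an E-box are shown because MYC binds that motif. They are FOXK1 at chr7:4682045-4682344 (+), under a 40.7-fold peak, FOXP4 at chr6:41546131-41546430 (+), under a 74.2-fold peak, and FOXD3 at chr1:63322317-63322616 (+), under a 17.4-fold peak.
FOXK1: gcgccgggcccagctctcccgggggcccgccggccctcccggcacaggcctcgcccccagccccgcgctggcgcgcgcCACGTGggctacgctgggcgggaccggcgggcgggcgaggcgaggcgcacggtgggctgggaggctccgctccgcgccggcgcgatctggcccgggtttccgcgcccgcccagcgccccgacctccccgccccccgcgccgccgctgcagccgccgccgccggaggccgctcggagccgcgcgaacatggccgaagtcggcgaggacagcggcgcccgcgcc
FOXP4: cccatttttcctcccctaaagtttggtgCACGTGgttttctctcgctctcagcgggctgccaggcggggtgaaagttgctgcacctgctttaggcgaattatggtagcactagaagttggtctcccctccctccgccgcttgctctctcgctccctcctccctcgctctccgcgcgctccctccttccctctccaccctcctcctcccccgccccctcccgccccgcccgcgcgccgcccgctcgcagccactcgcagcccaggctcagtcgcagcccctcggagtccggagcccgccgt
FOXD3: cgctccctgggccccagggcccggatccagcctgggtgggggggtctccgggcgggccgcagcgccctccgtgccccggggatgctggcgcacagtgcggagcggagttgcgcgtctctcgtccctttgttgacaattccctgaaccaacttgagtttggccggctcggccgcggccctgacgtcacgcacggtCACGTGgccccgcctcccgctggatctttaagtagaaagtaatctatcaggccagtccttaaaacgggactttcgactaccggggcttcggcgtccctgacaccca

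FOXP3 at chrX:49264661-49264960 (-) and FOXR2 at chrX:55623150-55623449 (+) are shown as starts under no peak. FOXP3 has 10 CpG and no match. FOXR2 has 1 CpG and holds a GATA match, ETS matches on both strands and a CCAAT box.
FOXP3: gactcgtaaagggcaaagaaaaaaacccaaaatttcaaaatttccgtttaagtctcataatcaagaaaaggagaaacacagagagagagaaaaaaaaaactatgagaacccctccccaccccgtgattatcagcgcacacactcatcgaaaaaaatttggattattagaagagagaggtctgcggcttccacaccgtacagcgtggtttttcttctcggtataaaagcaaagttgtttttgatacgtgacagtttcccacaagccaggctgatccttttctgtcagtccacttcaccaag
FOXR2: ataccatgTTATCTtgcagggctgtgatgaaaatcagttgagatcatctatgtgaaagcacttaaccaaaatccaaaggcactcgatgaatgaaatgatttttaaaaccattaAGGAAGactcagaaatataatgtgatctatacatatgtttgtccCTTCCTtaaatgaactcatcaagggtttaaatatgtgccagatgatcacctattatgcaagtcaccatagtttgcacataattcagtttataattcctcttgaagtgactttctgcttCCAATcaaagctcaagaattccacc

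Over all 51 member starts, motif shares stood near or below those of all 22132 coding promoters. The forkhead motif was in 2 (3.92%, against 2.85% of all promoters), the E-box in 3 (5.88% against 8.34%) and the GATA motif in 3 (5.88% against 7.88%). ETS matches were in 14 (27.5% against 33.5%), the CCAAT box in 13 (25.5% against 34.6%), AP-1 in 2 (3.92% against 4.01%) and RUNX in 1 (1.96% against 3.70%). Of the member starts, 43 (84.3%) lay under a peak, against 79.6% of all listed starts. A promoter was called CpG-rich at 55% GC or more and an observed-to-expected CpG ratio of at least 0.65. The 31 CpG-rich member starts (60.8%, against 54.0% of all) had a median covering peak of 40.7-fold, counting 0 where there was none, against 94.6-fold over 11942 CpG-rich starts. A peak covered 29 of them (93.5%, against 97.8%), and the CpG-rich starts of FOXL3 and FOXR1 lay under none. Of these 31, 10 (32.3%) lay under a peak of 100-fold or more, against 47.1% of all CpG-rich starts. The 20 other member starts had a median of 6.36-fold, against 4.50-fold over 10190 others. Starts of the same gene can share a peak, as 3 of FOXO3 and 3 of FOXJ3 did.

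At gene ends, forkhead genes had peaks about as often as other coding genes, but lower ones. The measure was the highest fold among peaks whose summit lay within 1 kb of either annotated end of the gene, set to 0 where there was none. A summit lay there in 44 of 51 members (86.3%), against 83.0% of coding genes. Their median was 13.6-fold, against 43.5-fold over all coding genes. At least 10-fold was reached by 28 members (54.9%, against 66.4%), at least 50-fold by 11 (21.6%, against 47.8%) and at least 100-fold by 6 (11.8%, against 29.2%). The median of all coding genes was exceeded by 11 members, a share of 21.6% against 50.0%. Counting any peak that overlapped the same windows gave 48 members (94.1%, against 87.6%) and a median of 21.4-fold, against 56.1-fold. By overlap, 8 members reached 100-fold (15.7%, against 32.0%).

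**Figure D1:**
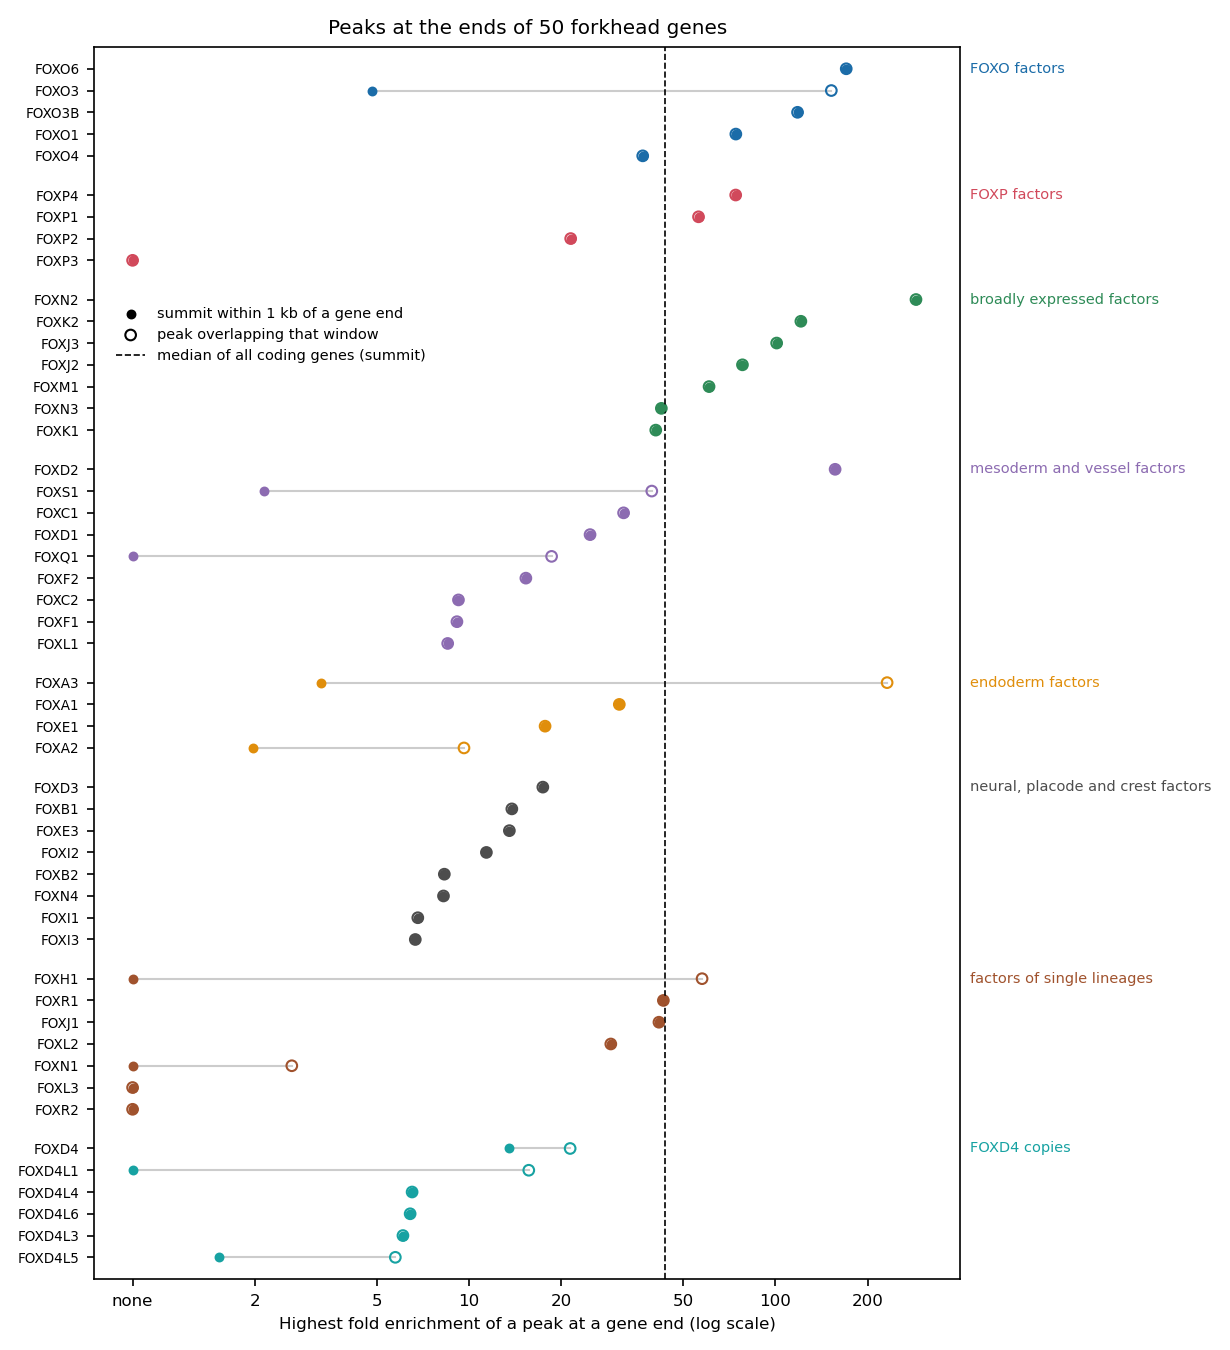
Highest fold enrichment (log axis) of a peak at an end of each of 50 forkhead genes, in groups by textbook role; filled points use peaks with a summit within 1 kb of an end, open points any peak that overlaps that window, and the dashed line is the median of all coding genes (43.5). FOXO and broadly expressed genes lie mostly right of the line, and the neural, placode and crest group reaches at most 17.4-fold. The groups were set after these values were seen.

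Forkhead genes are short, and short coding genes had lower peaks at their ends. Their median length was 4896 bp, against 24170.5 bp over all coding genes. Among genes up to 6 kb, the 30 members had a median of 8.82-fold, against 8.86-fold over 3734 coding genes, and 25 (83.3%) had a summit at an end, against 67.6%. From 6 to 50 kb, the 11 members had 36.9-fold, against 57.6-fold. Over 50 kb, each of the 10 members had a summit at an end, with a median of 65.1-fold against 48.9-fold over 6258 coding genes. How far gene length accounts for the lower family median was not tested.

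The FOXO genes were among the most open of the family, with a median of 74.2-fold at their ends. FOXO6, which in mouse acts mainly in the brain, led them with 170.1-fold (95% interval 167 to 173) in a 4109 bp peak at the start of chr1:41361434-41383590. FOXO3B, a coding copy of FOXO3 at chr17:18667629-18682314, had 118-fold at its start. FOXO1, which restrains growth downstream of insulin at chr13:40555667-40666641, had 74.2-fold in a 4876 bp peak with its summit 25 bp from the start. These 3 lay above the median of all coding genes.

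FOXO4 at chrX:71095851-71103532 had 36.9-fold at its start and 30.5-fold at its other end, where the summit is also at CXorf65. FOXO3 at chr6:108559825-108684774 had 4.85-fold by summit, from a peak at its far end. Its first 3 listed starts lay under a 6156 bp peak of 152-fold (149.6 to 155), whose summit lay 1294 bp upstream and so outside the 1 kb window. By overlap, FOXO3 stood next after FOXO6 among the FOXO genes. Reads from FOXO3 and FOXO3B can share sequence, and how the authors placed reads with several matches is not given in the sources used here.

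Among the FOXP genes, 2 of 4 lay above the median of all coding genes. FOXP4, a factor of lung and brain development at chr6:41546381-41602384, had 74.2-fold at its start, and a second peak of 35.1-fold lay just past its far end. FOXP1 at chr3:70954708-71583978 had 56.1-fold at its start in a peak of 5031 bp. FOXP2, known for its part in speech, had 21.5-fold in the widest end peak of the family, 6127 bp, at the start of chr7:114086327-114693765. FOXP3, the regulatory T cell factor at chrX:49250438-49264710, had no peak over any of its 14273 bp. The nearest peak, 152-fold and 4532 bp away, had its summit at an end of PPP1R3F.

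By summit, the broadly expressed members had the highest median fold of the role groups, 78.0 over 7 genes, while by overlap the FOXO genes had the higher median (118, against 78.0). The role groups were set after the members' values were seen, so the order of the groups describes this grouping only and was not tested. Of the 7, 5 stood over the median of all coding genes. FOXN2 at chr2:48313659-48379295 had the highest of the family, 287-fold (284 to 291), in a 3346 bp peak with its summit 731 bp inside the gene. FOXK2, which works with FOXK1 in glucose metabolism and binds the deubiquitinase BAP1, had 121-fold at the start of chr17:82519732-82604602 and 82.7-fold at its other end. FOXJ3, which drives meiosis in mouse spermatocytes, had 101-fold at the start of chr1:42176548-42335880. FOXJ2, its closest relative, had 78.0-fold in a 4138 bp peak at the start of chr12:8032716-8055517.

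FOXM1, which drives the genes of mitosis, had 60.7-fold at the end of higher coordinate of chr12:2857680-2877174, which the gene RHNO1 overlaps. FOXN3, a repressor of cell cycle genes at chr14:89156177-89619165, had 42.4-fold, and FOXK1 at chr7:4682295-4771442 had 40.7-fold, both just under the median of all coding genes. The lowest of this group thus stood above the median of the whole family.

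Mesoderm and vessel factors had lower peaks, with a median of 9.25-fold over 9 genes, and FOXD2 stood apart from the others. FOXD2, a mesoderm factor of kidney and skeleton, had 156-fold (154 to 159) in a 3717 bp peak at the start of chr1:47438044-47440691. FOXC1, needed for eye, heart and vessels, had 32.0-fold at chr6:1609915-1613897, and FOXD1, of kidney stroma, had 24.8-fold. FOXF2, of gut and palate mesenchyme, had 15.3-fold, FOXC2, of lymphatic vessels, 9.25-fold, FOXF1, of lung vessels, 9.14-fold, and FOXL1, of gut mesenchyme, 8.53-fold. FOXS1 had 2.15-fold by summit, but its end window was overlapped by a 39.5-fold peak. FOXQ1, placed in this group although it is a hair factor in mouse, had no summit within 1 kb and counts as 0 in the group's median. It lay under an 18.6-fold peak of 3101 bp with its summit 1046 bp inside the gene.

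Endoderm factors had a median of 10.5-fold over 4 genes. FOXA1, a pioneer factor of liver and gland cells, had 30.9-fold at its start, in a peak shared with TTC6. FOXE1, of the thyroid, had 17.7-fold with its summit 975 bp inside the gene. FOXA2, the pioneer factor of early endoderm, had 1.98-fold by summit and 9.64-fold by overlap. FOXA3, a liver factor at chr19:45864326-45873797, had 3.29-fold by summit, while its start lay under a 231-fold peak (228 to 234) whose summit, 1061 bp upstream, was at an end of SYMPK.

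All 9 neural, placode and crest genes had an end summit, each of them below the median of all coding genes. FOXD3, of neural crest and pluripotent cells, had 17.4-fold, FOXB1, of the hypothalamus, 13.8-fold, FOXE3, of the lens, 13.6-fold, and FOXI2 11.4-fold. FOXB2 had 8.32-fold near its far end, while its start lay under a 4.91-fold peak. FOXN4, of retinal interneurons, had 8.26-fold at its far end, while its start lay under a 3.13-fold peak. FOXI1, of inner ear and kidney, had 6.81-fold and FOXI3, of placodes, 6.69-fold.

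Among 7 factors of single lineages, 3 had a summit at an end. FOXR1 had 43.1-fold near its far end, while its start lay under no peak. FOXJ1, the master factor of motile cilia, had 41.7-fold in a peak that also covers an end of RNF157. FOXL2, of the ovary, had 29.0-fold in a peak shared with its neighbour FOXL2NB. The other 4 had none. FOXH1, the SMAD partner in Nodal signalling, lay wholly under a 7604 bp peak of 57.6-fold whose summit was at an end of PPP1R16A. FOXN1, of thymus epithelium, had a 2.64-fold peak overlapping its window. FOXL3, a germ cell factor in medaka fish, had its nearest peak 15749 bp away. FOXR2, activated in some brain tumours of children, had no peak within 50 kb, and its nearest lay 88.1 kb away at 4.38-fold.

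The FOXD4 copies are closely related genes, and their values cannot be assigned to single copies with certainty. FOXD4 had 13.6-fold by summit and 21.4-fold by overlap. FOXD4L4 had 6.53-fold, FOXD4L6 6.43-fold, FOXD4L3 6.09-fold and FOXD4L5 1.53-fold (1.30 to 1.80), while FOXD4L1 had none by summit and 15.7-fold by overlap. Their RefSeq promoters matched over long stretches in 2 of 15 pairs, FOXD4 with FOXD4L6 (293 of 299 aligned bases, 98.0%) and FOXD4L3 with FOXD4L4 (215 of 215), while the best local alignments of the other pairs ran over 10 to 87 bases. Some of these shorter alignments were also near-identical: FOXD4L3 with FOXD4L6 (87 of 87), FOXD4 with FOXD4L3 (85 of 86) and FOXD4L1 with FOXD4L5 (58 of 58). In these pairs, the last bases of the FOXD4L6 and FOXD4 windows matched the first bases of the FOXD4L3 window. Likewise, the last bases of the FOXD4L5 window matched the first of the FOXD4L1 window. Each window was set by its own listed start, so a short alignment does not show that the copies differ. The lowest identity, 82.6% over 23 bases, came from FOXD4L4 with FOXD4 and with FOXD4L6. Both were matches in reverse orientation, which do not measure how far these copies differ.

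Values at the 1 kb border were as follows. Summits just inside were those of FOXL2 (993 bp, 4.61-fold), FOXN4 (981 bp, 7.08-fold) and FOXE1 (975 bp, 17.7-fold). Just outside were FOXD4L1 (1017 bp, 9.13-fold), FOXQ1 (1046 bp, 18.6-fold) and FOXA3 (1061 bp, 231-fold).

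Peaks covered a larger share of the short forkhead genes than of other short coding genes. A median of 48.7% of the gene lay under peaks, against 12.6% over all coding genes, and at least 50% was covered in 25 members (49.0%, against 12.1%). Length moved with this value. Up to 6 kb, members had a median of 69.6% covered, against 31.1%, and 23 of 30 (76.7%) were covered over at least 50%, against 36.8% of coding genes of that length. From 6 to 50 kb the medians were 16.02% in members and 15.4% in coding genes, and over 50 kb they were 23.2% and 7.88%. FOXL2, FOXH1 and FOXD4L4 were covered over 100% of their length. Next came FOXB2 (94.8%), FOXD4 (92.6%), FOXD4L1 (86.04%), FOXD4L6 (84.9%) and FOXB1 (84.6%). FOXL3, FOXP3 and FOXR2 had no peak over the gene, so 48 members had one (94.1%, against 91.5%).

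**Figure D2:**
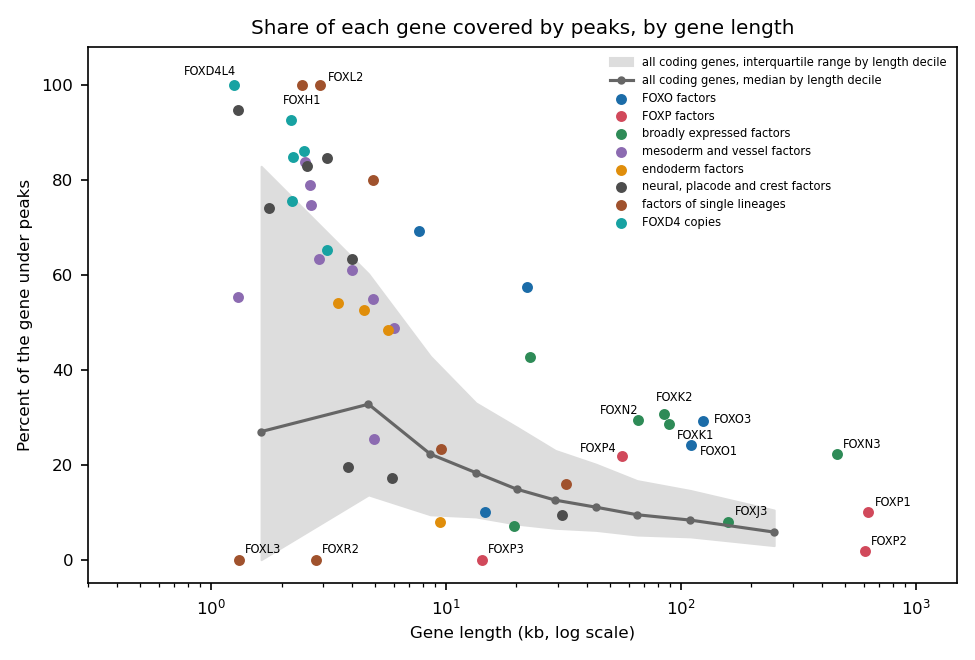
Percent of each of 50 forkhead genes under peaks against gene length (log axis); the line and band give the median and interquartile range of all coding genes in length deciles. Many short forkhead genes lie above the band, as do the long genes FOXN2, FOXK1, FOXK2, FOXO1, FOXO3 and FOXP4, while FOXL3, FOXR2 and FOXP3 lie at 0. FOXN3 (22.3%) is longer than the last point of the band, whose upper edge there is 10.4%.

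The peaks over members were wide for their height. A peak wider than 2 kb overlapped 34 members (66.7%, against 52.7%). Among genes whose strongest end peak was 5- to 20-fold, that peak had a median width of 1815.5 bp in 18 members, against 1238 bp in 2622 coding genes. From 20- to 50-fold, the medians were 2782.5 bp in 10 members and 1910 bp in 2330 coding genes. From 50- to 100-fold they were 4184 bp in 5 members and 2135.5 bp in 3718 coding genes, and at 100-fold or more 3000 bp in 6 members and 2391 bp in 5827 coding genes. In each of these 4 classes the members' median was the larger.

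The long members held many peaks inside the gene, away from its ends. Over 50 kb, 10 members had a median of 28.9 such peaks per 100 kb, against 11.8 (interquartile range 6.72 to 19.2) over 6258 coding genes. FOXK2 had the highest density, 42.4 per 100 kb (36 peaks), followed by FOXN2 with 39.6 (26 peaks) and FOXO3 with 36.01 (45 peaks). FOXO1 had 29.7 (33 peaks), FOXK1 29.2 (26 peaks), FOXN3 28.7 (133 peaks) and FOXP4 21.4 (12 peaks). FOXP1 had 15.9 (100 peaks) and FOXJ3 14.4 (23 peaks). FOXP2, though nearly as long as FOXP1, had 18 peaks and 2.96 per 100 kb, the lowest of the 10 long members and at the 7.74th percentile of long coding genes.

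The strongest peaks inside these genes were as high as many at gene ends. FOXK2 held a 105-fold peak of 3526 bp at chr17:82590636-82594161, 73.4 kb from its start. FOXK1 held a 102-fold peak of 3296 bp at chr7:4744293-4747588, 62.9 kb from its start. FOXP1 held 79.7-fold at chr3:71443489-71445489, 139.6 kb from its start. In FOXN3, 29 of the 133 inner peaks (21.8%) reached 10-fold, and the highest was 75.6-fold, 454 kb from the start and near its far end. FOXO3 held 63.0-fold, FOXP4 61.9-fold, FOXO1 51.9-fold, FOXP2 31.5-fold, FOXN2 13.98-fold and FOXJ3 9.55-fold. The gene table gives no exons, so exons and introns were not told apart.

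**Figure D3:**
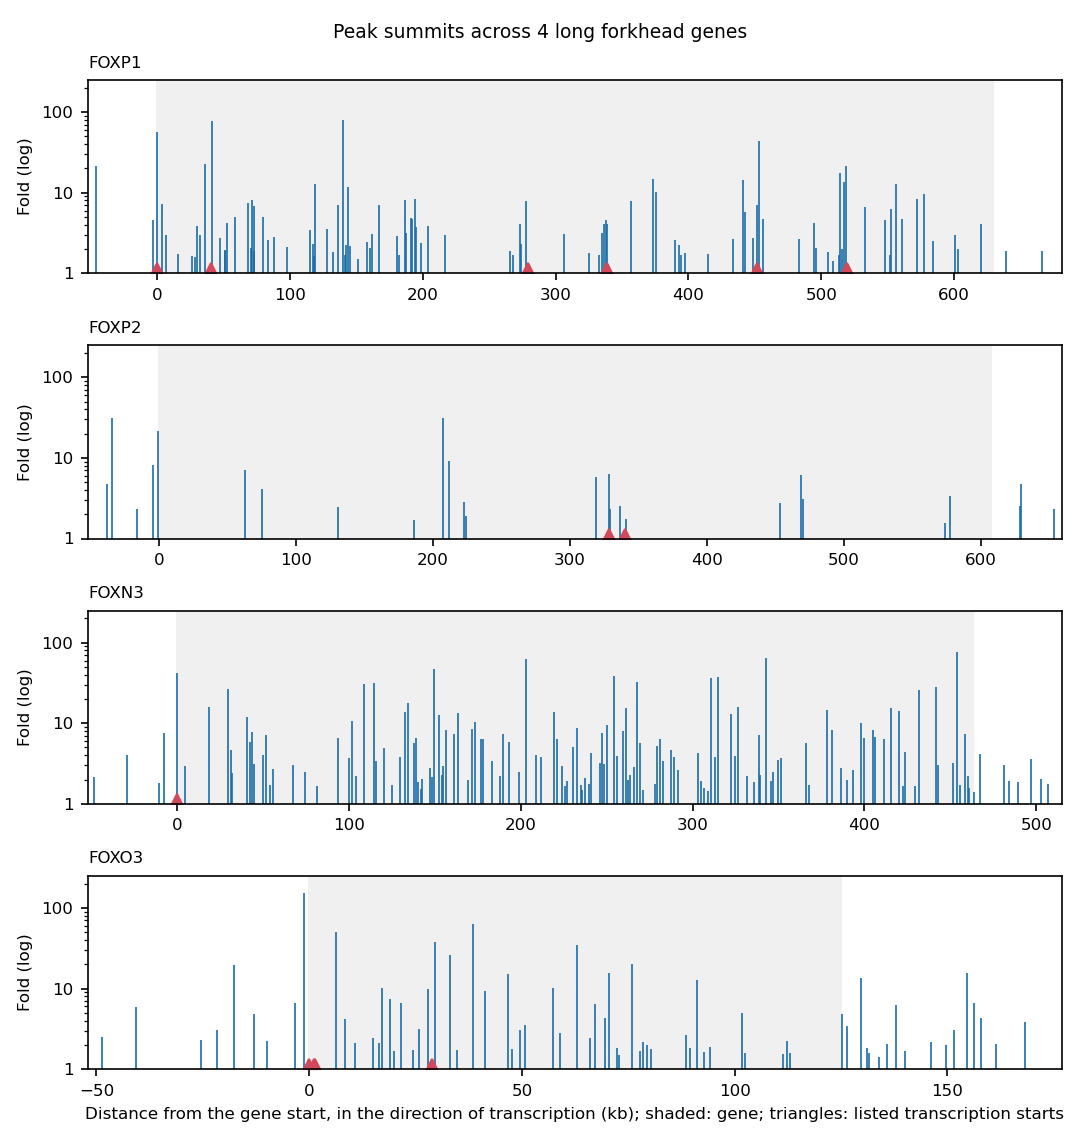
Fold (log axis) of each peak by the distance of its summit from the gene start in kb, along the direction of transcription, in FOXP1, FOXP2, FOXN3 and FOXO3; the gene is shaded and triangles are RefSeq transcription starts. Peaks fill FOXN3 (133 inner peaks) and FOXO3 (45), while FOXP2 has 18 over a similar length to FOXP1 (100).

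FOXP1 and FOXO3 had several listed starts, and their peaks differed in height. FOXP1 ran from 56.1-fold over its upstream start to 78.4-fold over the next, 7.88-, 4.05- and 6.98-fold over the following 3, and 21.7-fold over the last, which has 51 CpG. FOXP2's listed starts, deep in the gene, lay under a 6.29-fold peak or none. FOXJ3's 3 starts lay under the same 101-fold peak.

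Distal peaks lay over 1 kb from any coding gene end and within 50 kb of a member's end, inside or outside the gene. They were a little sparser by the median of the family, 11.7 per 100 kb, against 14.03 over all coding genes. The direction differed with gene length. Up to 6 kb, members had a median of 10.2, against 13.5 over coding genes of that length. From 6 to 50 kb the medians were 10.5 and 15.2, but over 50 kb they were 19.6 and 12.7. Above the median of all lay 20 members (39.2%, against 50.0%), and above the upper quartile of 19.9 lay 11 (21.6%, against 25% of coding genes). FOXK2 was highest with 33.5, then FOXO6 with 31.1, FOXO3 with 30, FOXN2 with 29.0, FOXJ2 with 25.2, FOXK1 with 24.8, FOXS1 with 23.7 and FOXH1 with 21.5. Part of these peaks lie inside the gene. Outside it, FOXO6 had 29, FOXK2 26, FOXJ2 26, FOXO3 25, FOXS1 24, FOXN2 22, FOXH1 22 and FOXK1 21. Of these outside peaks, the member was the nearest coding gene for 28 at FOXO6, 20 at FOXO3, 18 at FOXN2 and 11 at FOXJ2. That held for only 3 at FOXK2, 2 at FOXS1, 2 at FOXK1 and none at FOXH1, so most outside peaks there lay nearer to other genes. FOXR2 had none, FOXI3 1.89 and FOXP2 4.5. By group, the median was 24.8 for the broadly expressed, 20 for the FOXO and 18.5 for the single-lineage genes, and 13.3 for mesoderm and vessel, 10.8 for FOXD4 copies, 10.2 for endoderm, 9.75 for FOXP and 9.62 for neural, placode and crest genes.

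**Figure D4:**
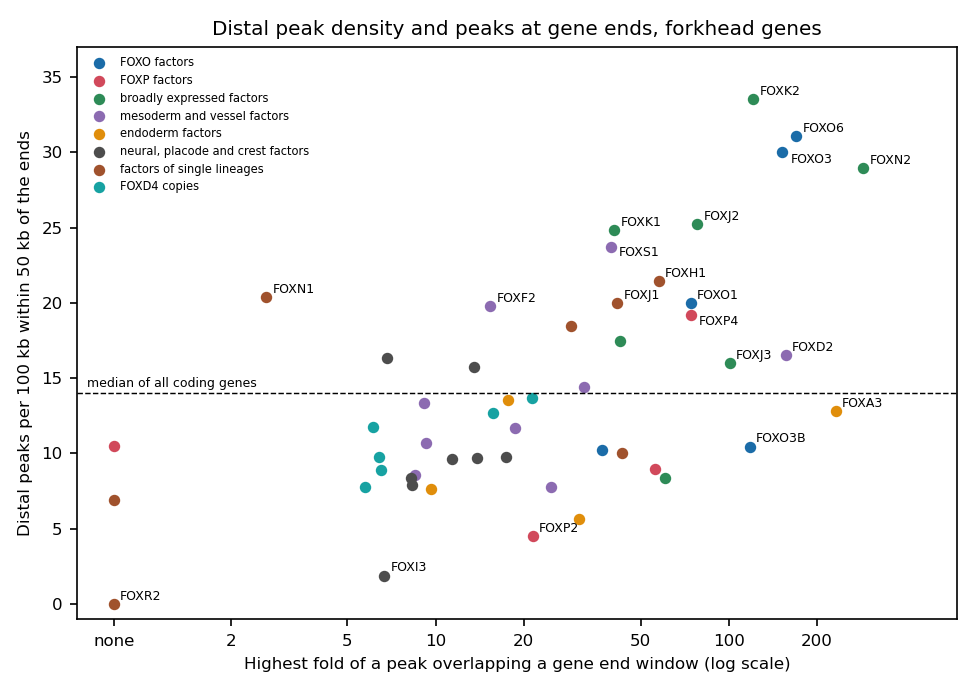
Distal peaks per 100 kb within 50 kb of the ends, inside or outside the gene, against the highest fold of a peak overlapping an end window (log axis), for 50 forkhead genes coloured by role; the dashed line is the median of all coding genes (14.03). FOXK2, FOXO6, FOXO3, FOXN2 and FOXJ2 lie high on both axes, and FOXR2 lies at 0 on the vertical axis with no peak on the horizontal one.

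Single distal peaks near a few members were very strong. With the summit outside the gene, 666 pairs of a peak and a member were found, and in 332 (49.8%) the member was the nearest coding gene. The highest by this rule was the 152-fold FOXO3 peak described above, which is not apart from the gene. Its summit lay upstream, but it covers the first 3 listed starts. The highest peak that did not overlap its member was at FOXL2, 144-fold and 5086 bp wide at chr3:138912062-138917147. It lay 28.6 kb downstream in LOC124906289, and FOXL2 had another of 62.4-fold 7.97 kb downstream. FOXJ2 had 113-fold at chr12:8025995-8028267, 5.95 kb upstream. FOXO6 had 83.7-fold at chr1:41353315-41354623, 7.48 kb upstream, and FOXD2 76.3-fold at chr1:47431464-47435675, 5.58 kb upstream over FOXD2-AS1. For each of these peaks the member was the nearest coding gene. Other strong peaks within 50 kb lay nearer to other genes, such as 128-fold in SNX12 (FOXO4), 119-fold in SYMPK (FOXA3), 118-fold at the transfer RNA gene TRX-CAT1-8 (FOXK2) and 117-fold in TTLL9 (FOXS1).

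The clustered members showed few strong peaks between them. On chromosome 6, FOXQ1, FOXF2 and FOXC1 span 301.8 kb with 47 peaks (15.6 per 100 kb), the highest of 53.4-fold at chr6:1554334-1555701, between FOXF2 and FOXC1. On chromosome 16, FOXF1, FOXC2 and FOXL1 span 73.0 kb with 18 peaks (24.7 per 100 kb). The highest there, 52.3-fold at chr16:86554791-86555846, lay at an end of MTHFSD, and one of 50.5-fold lay 2.86 kb from FOXC2. FOXE3 and FOXD2 lie within 24.4 kb on chromosome 1 with 5 peaks. FOXD2's end peak there was 156-fold and FOXE3's 13.6-fold, and the 76.3-fold peak lay between them.

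**Figure D5:**
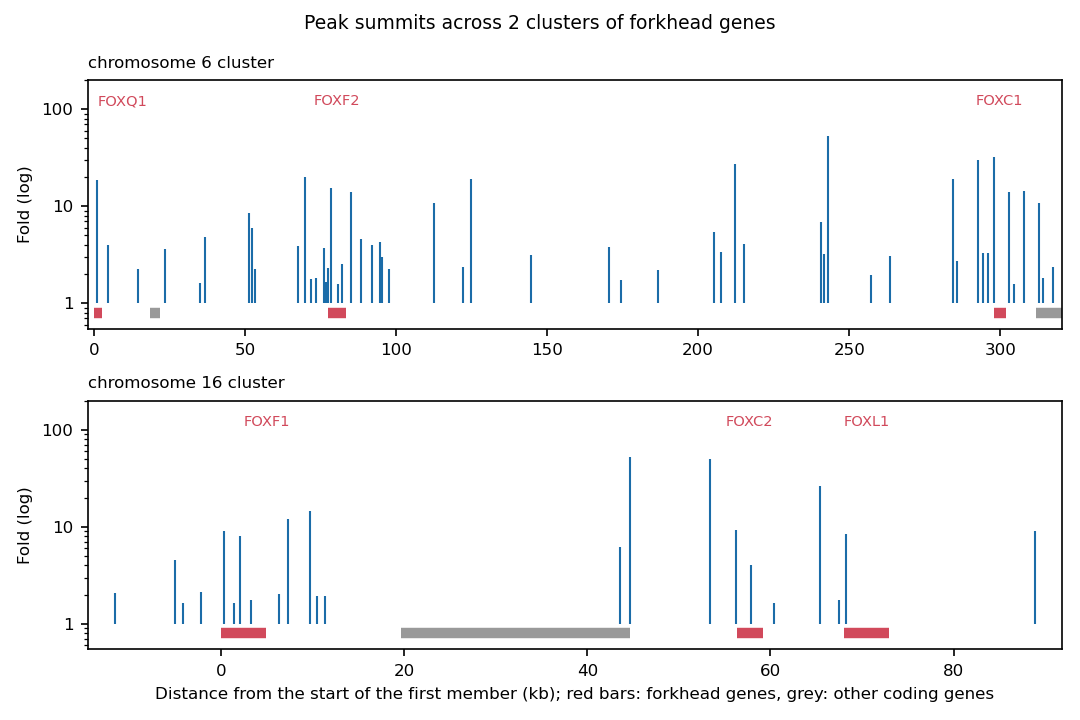
Fold (log axis) of each peak by the distance of its summit from the start of the first member, in kb, in the clusters of forkhead genes on chromosomes 6 (FOXQ1, FOXF2, FOXC1) and 16 (FOXF1, FOXC2, FOXL1); red bars are forkhead genes and grey bars other coding genes. The highest peaks, 53.4-fold and 52.3-fold, lie between members rather than over them.

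As a class, the family's own end peaks were lower than those of all coding genes. The 73 distinct peaks with a summit at a member's end had a median of 8.32-fold, against 20.5-fold over 21510 such peaks at all coding genes, with similar median widths (1466 and 1460.5 bp). Inside the genes, 498 peaks had a median of 3.40-fold, against 3.20-fold. Outside, 636 distinct peaks had a median of 3.75-fold, against 3.46-fold.

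Genes that act on forkhead factors, or that these factors act on, had higher median folds at their ends than all coding genes. The lists were not matched for gene length, and the medians of all coding genes in length deciles ran from 2.96- to 74.5-fold. Of 40 genes that regulate FOXO factors, 37 had a summit at an end (92.5%, against 83.0% of coding genes), with a median of 112-fold against 43.5-fold, and 24 reached 100-fold (29.2% of coding genes did). The deacetylase SIRT2 had 275-fold, the kinase MTOR 273-fold and the arginine methyltransferase PRMT1 263-fold. The acetyltransferase EP300 and the kinase STK3 had no summit within 1 kb, although peaks of 193- and 56.5-fold overlapped their end windows.

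Of 44 target genes of FOXO factors, 40 had a summit at an end (90.9%, against 83.0%), with a median of 89.8-fold against 43.5-fold over all coding genes, and 21 reached 100-fold (47.7%, against 29.2%). The stress genes GADD45A (256-fold), SESN1 (203-fold) and SOD2 (190.04-fold) led. SESN3, RAG2, G6PC1 and PCK1 had no summit, and of these only SESN3 had a peak overlapping its end windows, of 286-fold. Inside the gene, away from its ends, RAG2 held a 97.8-fold peak and G6PC1 one of 10.9-fold, while PCK1 had none. G6PC1 and PCK1 encode liver enzymes of glucose production, and RAG2 acts in lymphocytes. RAG1, on the same list, had 124-fold at an end, and whether tissue plays a part was not tested. Of 30 partner and cofactor genes, 29 had a summit (96.7%, against 83.0%), with a median of 81.1-fold against 43.5-fold, and 11 reached 100-fold (36.7%, against 29.2%). LIN52 (285-fold) and LIN54 (225-fold), of the MuvB complex that works with FOXM1, and CDK4 (247-fold) were highest, and the corepressor SIN3A had none by summit and 329-fold by overlap. FOXM1 itself stood at 60.7-fold and FOXO1 at 74.2-fold, below the medians of these lists. Of the other FOXO genes, FOXO6 (170.1-fold) and FOXO3B (118-fold) stood above these medians. FOXO4 (36.9-fold) and FOXO3 (4.85-fold by summit, 152-fold by overlap) stood below them by summit.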

How the data were processed

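Per the labels' protocols, ATAC-seq libraries came from 35 cultures of H1-derived blood progenitors. Per the submitters' processing notes, the tools were Picard 2.2.4, Bowtie2 2.2.8 and Trim Galore 0.6.5, with hg38 and GRCh38.p13 as builds; MACS 2.1.0 and GENCODE 36 come from the peak names. The order of steps, filters, any transposase shift and the libraries pooled are not given in the sources used here. For each peak the deposited list holds coordinates, a summit, the authors' score (not used), fold enrichment (a ratio) and −log10 p-value. The pileup behind a fold was recovered from the caller's constant background of 93.5. A constant background does not adjust for copy number or mappability, and pooling lets a peak come from a part of the libraries.

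Genes were RefSeq genes of GRCh38.p14, 19974 of them protein-coding. Summits were assigned within 1 kb of either gene end, since the table gives no strand, transcripts or exons. Strands and starts came from RefSeq promoters for 40 members. Python 3.11.15, numpy 2.4.6, pandas 2.3.3, scipy 1.17.1, Biopython 1.88 and matplotlib 3.10.9 were used, and the counting was tested on simulated data. Members are described by counts and medians beside those of all coding genes, with no test. The members, gene lists and role groups were chosen with earlier results of these data known, the role groups after the members' values were seen. Fully described are the members with the 12 highest folds at ends, the 8 highest distal densities and the 8 highest covered shares, those with no summit, the FOXO, FOXP, FOXN, FOXK and FOXJ genes and the clustered genes; other members are named with their fold, and other lists by their 3 highest genes and those without a summit. The values of 1 member and of a few listed genes are not reported here, although counts and medians include them, and figures show 50 members. The comparison of doxycycline-treated with untreated cells, planned with edgeR, was not run because the list has no values per library.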

Additional observations from a re-analysis of the deposited data

How the results depend on the processing

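Of 77 alternatives to the family's and the lists' counts and medians, 73 stayed within 1.5 times a count or within the spread of a median, and 4 moved. That spread was an interval over the values of the genes themselves, which are not replicates. Part of the 73 had little room to move. Leaving out the FOXD4 copies or the X chromosome removes few members, and a count such as 44 of 51 could not rise by 1.5 times. With a 0.5 kb window at gene ends, 18 members reached 10-fold (28 at 1 kb) and the median fold fell to 6.09 (13.6 at 1 kb), while that of all coding genes was 27.9. With the more significant 50% of the peaks, the median distal density was 5.93 per 100 kb (11.7 with all peaks), beside 6.69 for all coding genes. With a distal distance of 100 kb, 6 members exceeded the upper quartile (11 at 50 kb). The other alternatives were a 2.5 kb window, a 2 kb window added after the data were seen, any overlap with the window, starts only, a distal distance of 20 kb, and leaving out the FOXD4 copies or the X chromosome. For single members, 334 of 388 values kept within their counting interval and 54 moved. The 334 include 45 values without the FOXD4 copies and 48 without the X chromosome. These could not move, because leaving genes out does not change the fold of another gene. The 0.5 kb window moved the most, 13 values, while 38 stayed. FOXO3 stood at 152-fold with the 2 and 2.5 kb windows and by overlap, and FOXN2, FOXJ3 and FOXP2 had no summit within 0.5 kb. No paired analysis was possible because the list names no library, so the fit with the replicate block and the comparison of treatments were not run. Peaks of closely related copies and the unknown depth per library limit single values.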

Other observations

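Of 15 noncoding genes listed beside forkhead genes, 13 matched the gene table. A summit lay at an end of 9 of these (69.2%, against 83.0% of coding genes), and a peak overlapped the end windows of 11. Over the 13, the median was 2.47-fold by summit and 11.96-fold by overlap, counting 0 where there was none. FOXN3-AS1 had 2.47-fold by summit and 63.0-fold by overlap. FOXD2-AS1, which lies beside FOXD2, had 76.3-fold and lay wholly under its peak. FOXCUT, beside FOXC1, had 30.2-fold, and FOXF2-DT, which runs across the start of FOXF2, had 15.3-fold from the FOXF2 peak itself. FOXP4-AS1 and FOXO6-AS1 were among the 4 with none. FOXP4-AS1 nonetheless overlapped the 74.2-fold FOXP4 peak, while FOXO6-AS1, inside the most open FOXO gene, was at 0% covered. FENDRR, a mesoderm transcript beside FOXF1, had 2.12-fold by summit and 9.14-fold by overlap, and LINC00261, beside FOXA2, had 1.58-fold.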
